A study of Mus musculus with 9 samples.

Results

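The small nucleolar ribonucleoprotein (snoRNP) core proteins were examined as 7 genes, read on all probe sets that carry their symbols on an Affymetrix mouse expression array. Dkc1, Nhp2, Nop10 and Gar1 encode the core of the box H/ACA particle, and Fbl, Nop56 and Nop58 encode core proteins of the box C/D particle. Membership rests on the gene symbols, and the family was picked with earlier results of these data known. The members account for 13 of the 45101 probe sets and 7 of the 18193 genes that could be named. Dkc1 had 3 probe sets, Nhp2, Nop10, Fbl and Nop56 had 2 each, and Gar1 and Nop58 had 1 each. All 13 passed the filter on low values. Snu13, the fourth box C/D core protein, is read only on probe sets that also carry another symbol, so no value is given for it.

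A snoRNP is a short guide RNA bound by a fixed set of proteins, and most of its targets are nucleotides of ribosomal RNA in the nucleolus. In a box H/ACA particle, dyskerin (Dkc1) turns uridine into pseudouridine, while Nhp2, Nop10 and Gar1 hold the RNA and the enzyme in place. In a box C/D particle, fibrillarin (Fbl) adds a methyl group to the ribose, and Nop56 and Nop58 bridge the guide RNA and the enzyme. The box H/ACA core is also part of the telomerase particle. Genes for ribosome production, these among them, are well known as targets of the Myc family of transcription factors.

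The samples were cultured preSC, preneoplastic neuroendocrine cells from lungs of mice with conditional alleles of Rb, p53 and p130 that were deleted by Adeno-Cre virus, on a mixed C57BL/6 and 129/Sv background. All 9 samples carried these deletions. There were 3 arrays of preSC given no Myc virus, and 2 arrays each of preSC transduced with a retrovirus carrying L-Myc, one carrying C-Myc or one carrying N-Myc. The labels name no empty-vector group and no age, and the promoter in the vectors, the number of clones behind each culture and any sharing of cultures between arrays are not given in the sources used here. Effects of Myc and of viral transduction therefore cannot be told apart. The labels call the molecule polyA RNA for preSC and L-Myc and total RNA for C-Myc and N-Myc, but the protocols of all 9 samples speak of total RNA, so this label is in doubt.

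The proximal promoters of the box H/ACA genes are shown because these 4 genes gave both the widest and the narrowest differences between preSC and the transduced cells. Of the 7 genes, 6 matched the RefSeq promoter table for build GRCm38.p6 (Fbl had no entry), which spans 250 bases before to 50 bases after the transcription start. The windows are chrX:75095604-75095903 on the plus strand for Dkc1, chr11:51619523-51619822 on the plus strand for Nhp2, chr2:112261676-112261975 on the plus strand for Nop10 and chr3:129831347-129831646 on the minus strand for Gar1. Each is printed 5′ to 3′ on the strand of the gene, and capitals mark matches on either strand to the motifs described after the sequences.
Dkc1: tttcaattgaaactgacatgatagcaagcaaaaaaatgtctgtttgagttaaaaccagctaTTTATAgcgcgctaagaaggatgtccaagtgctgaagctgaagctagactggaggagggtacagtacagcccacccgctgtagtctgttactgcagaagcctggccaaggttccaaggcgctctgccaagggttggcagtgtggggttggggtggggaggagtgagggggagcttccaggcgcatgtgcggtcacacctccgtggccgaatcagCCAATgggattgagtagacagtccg
Nhp2: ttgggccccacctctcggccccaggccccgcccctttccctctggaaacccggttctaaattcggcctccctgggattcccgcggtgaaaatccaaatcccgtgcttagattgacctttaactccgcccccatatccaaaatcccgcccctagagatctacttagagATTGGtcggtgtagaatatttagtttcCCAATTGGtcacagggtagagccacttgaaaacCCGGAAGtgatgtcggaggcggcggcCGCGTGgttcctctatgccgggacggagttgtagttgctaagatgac
Nop10: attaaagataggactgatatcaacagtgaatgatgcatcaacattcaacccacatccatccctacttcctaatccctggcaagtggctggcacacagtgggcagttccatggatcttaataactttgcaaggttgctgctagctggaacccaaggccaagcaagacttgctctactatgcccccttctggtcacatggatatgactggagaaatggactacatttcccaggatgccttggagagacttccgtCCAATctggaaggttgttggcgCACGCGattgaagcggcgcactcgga
Gar1: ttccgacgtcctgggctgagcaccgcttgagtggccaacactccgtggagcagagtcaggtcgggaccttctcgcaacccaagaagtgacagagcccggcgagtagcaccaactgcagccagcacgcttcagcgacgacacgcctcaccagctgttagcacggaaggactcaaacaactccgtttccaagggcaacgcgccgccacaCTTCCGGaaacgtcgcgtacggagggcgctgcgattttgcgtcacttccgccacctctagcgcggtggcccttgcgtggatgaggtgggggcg

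The motifs searched on both strands were the E-box CACGTG, to which Myc proteins bind, its variant CACGCG, the ETS core CCGGAAG, the CCAAT box CCAAT and the TATA box TATAAA. No motif contains another, and neighbouring matches share bases only where capitals run together, as in Nhp2. The letters CACGTG were in 0 of the 6 member windows and in 7.15% of all 32851 promoter windows. The letters CACGCG were in 2 of 6 (Nhp2 and Nop10), against 9.27% of all windows. CCGGAAG was in 2 of 6 (Nhp2 and Gar1), against 8.86%, and CCAAT in 4 of 6 (Dkc1, Nhp2, Nop10 and Nop56), against 37.4%. TATAAA was found in Dkc1 only, against 13.6%. These are matches of letters in one window and not measured binding sites.

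Before the members were compared, the arrays were checked as a whole. Of 10 listed neuroendocrine markers, 9 had a probe set and all 9 were above the floor, with mean log2 values of 10.52 to 10.84 over the 9 arrays. Markers of other cells were in part above the floor in at least 1 array: 4 of 8 for fibroblasts and stroma, 2 of 6 for endothelium, 4 of 6 for leukocytes, and 4 of 6 for club, alveolar and ciliated cells. Their mean log2 values per array were 5.00 to 5.57, 5.14 to 5.94, 5.12 to 6.36 and 5.39 to 6.39. The ones below it in every array included Col1a1, Col3a1, Pecam1, Cdh5, Ptprc and Scgb1a1, and any part of other cells in the results was not tested. The virus labels were checked on the MYC genes: the second-brightest of 3 Mycl probe sets read 5.39 to 5.74 in preSC, 11.79 and 12.74 in L-Myc, and 6.68 to 8.52 in the others. The brightest did not separate L-Myc from preSC (-0.23, adjusted p = 0.690), and the third was higher in all 6 transduced arrays (6.09 to 7.24) than in preSC (4.66 to 4.75). The Myc probe set read 6.50, 6.82 and 8.13 in preSC and 11.22 and 10.68 in C-Myc, but also 11.96 and 11.40 in the arrays labelled N-Myc, so Myc does not separate N-Myc from C-Myc. One Mycn probe set was high only in the arrays labelled N-Myc (9.05 and 8.46, against 5.79 to 6.39 in the others). Another read 11.07 to 13.54 in all 6 transduced arrays and 6.37 to 6.89 in preSC. The remaining Mycn probe set went the other way, with 7.74 to 8.52 in preSC and 5.62 and 5.47 in N-Myc. Its limma difference from preSC was -2.71 in N-Myc (adjusted p = 0.0072) and -2.06 in C-Myc (adjusted p = 0.0223). In L-Myc it was -0.81 (adjusted p = 0.309). The preSC arrays also differed from all 6 transduced arrays in control probe sets. The 18S ribosomal RNA controls read 12.88 to 13.91 in preSC and 8.22 to 9.35 in the transduced arrays, and the 5′ minus 3′ difference of the Dap spike-in was -3.66 to -3.40 in preSC and -1.68 to -1.51 in the others. These controls moved with every contrast against preSC, and their part in the results was not tested. The replicate spread was uneven. Of the probe sets other than controls, 29 differed over 2-fold between preSC 1 and preSC 2 and 13 between the N-Myc arrays. The other pairs within a group had 1807 to 3032. Counts below are therefore also given with preSC 1 and 2 averaged into 1 sample and the N-Myc arrays averaged into 1 sample.

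**Figure D1:**
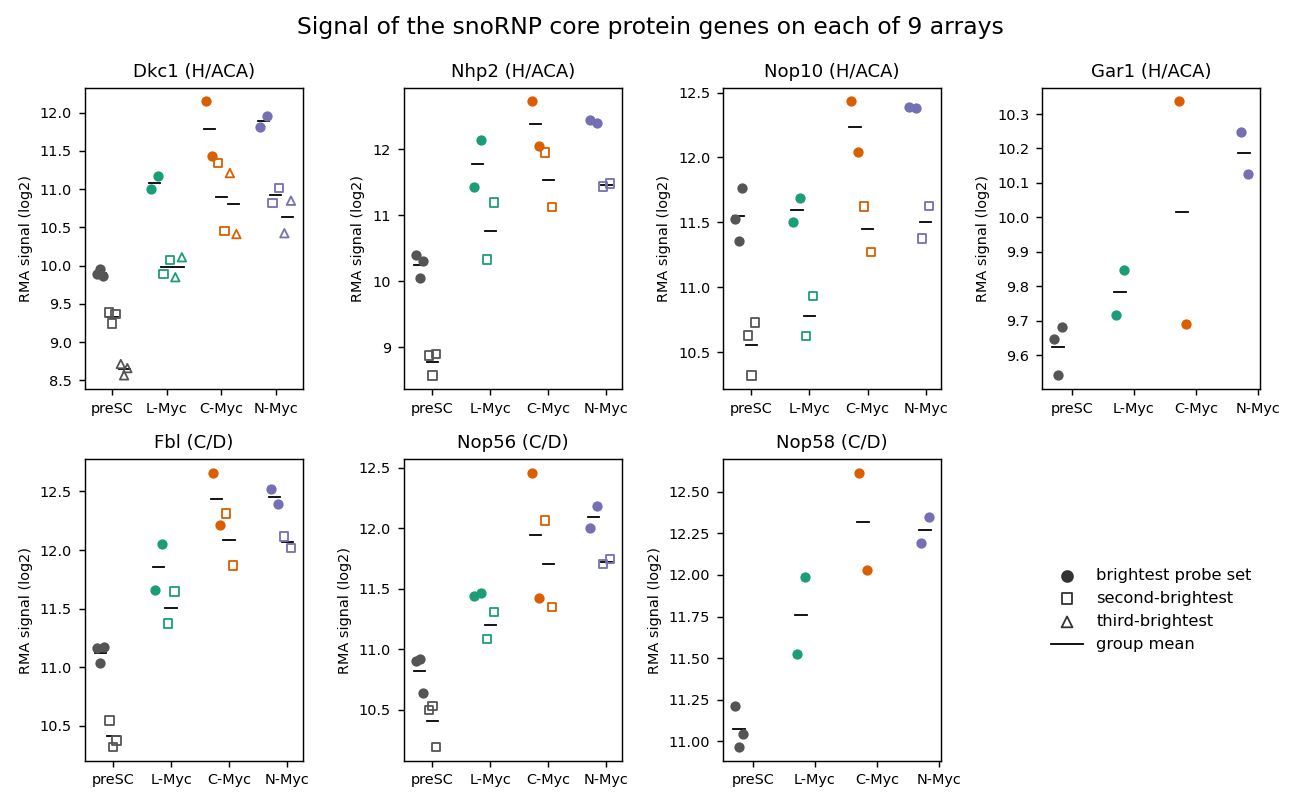
Log2 values (vertical axis) of the 13 probe sets of the 7 snoRNP core genes in each of the 9 arrays, 1 panel per gene, with the groups along the horizontal axis, 1 point per array (filled circles for the brightest probe set, open squares and triangles for the second and the third) and a bar at each group mean. For every gene except Nop10 the 6 transduced arrays lie above the 3 preSC arrays.

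Higher levels of snoRNP core transcripts than in preSC were found in all 3 transduced groups, with more members passing the test in C-Myc and N-Myc than in L-Myc. By its brightest probe set, a gene rose where the adjusted p of the limma fit was under 0.05. In L-Myc, 3 of 7 genes rose (Dkc1, Nhp2 and Fbl), where 6.82% of all 12986 tested genes were called higher. In C-Myc, 6 of 7 rose, against 10.7% of all genes, and in N-Myc 6 of 7 rose, against 13.3%. Gar1 did not pass in any group, and no member fell. The median log2 change of the 7 genes was 0.68 in L-Myc, 1.25 in C-Myc and 1.27 in N-Myc, where the medians over all tested genes were -0.04, -0.05 and -0.03. The 3 comparisons share the preSC arrays, so they are not independent of each other. In cultures read as a whole, more RNA per cell and more cells with the RNA cannot be told apart.

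These counts rest on few arrays. Calls over all probe sets also fell with the close arrays averaged and changed with 1 array left out, so such shifts are not particular to the members. Leaving out an array of a transduced group leaves 1 array there, and such a fit has no spread from that group. With the close arrays averaged, which leaves 7 samples and 1 N-Myc sample assumed to vary like the other groups, the count was 0 of 7 in L-Myc, 3 of 7 in C-Myc (Dkc1, Nhp2 and Fbl) and 0 of 7 in N-Myc. The averaging alters the changes only through the weight of each preSC array, so their near-constant size is no check on them. For Dkc1 they were 1.19, 1.89 and 1.99, while the Nop10 change in L-Myc turned to -0.01. The L-Myc count was 2 without any 1 of preSC 1, preSC 2, preSC 3, L-Myc 2, N-Myc 1 or N-Myc 2, and 5 without either C-Myc array. The C-Myc count was 4 without preSC 1, preSC 2 or C-Myc 1. The N-Myc count was 4 without N-Myc 1 and 3 without N-Myc 2.

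**Figure D2:**
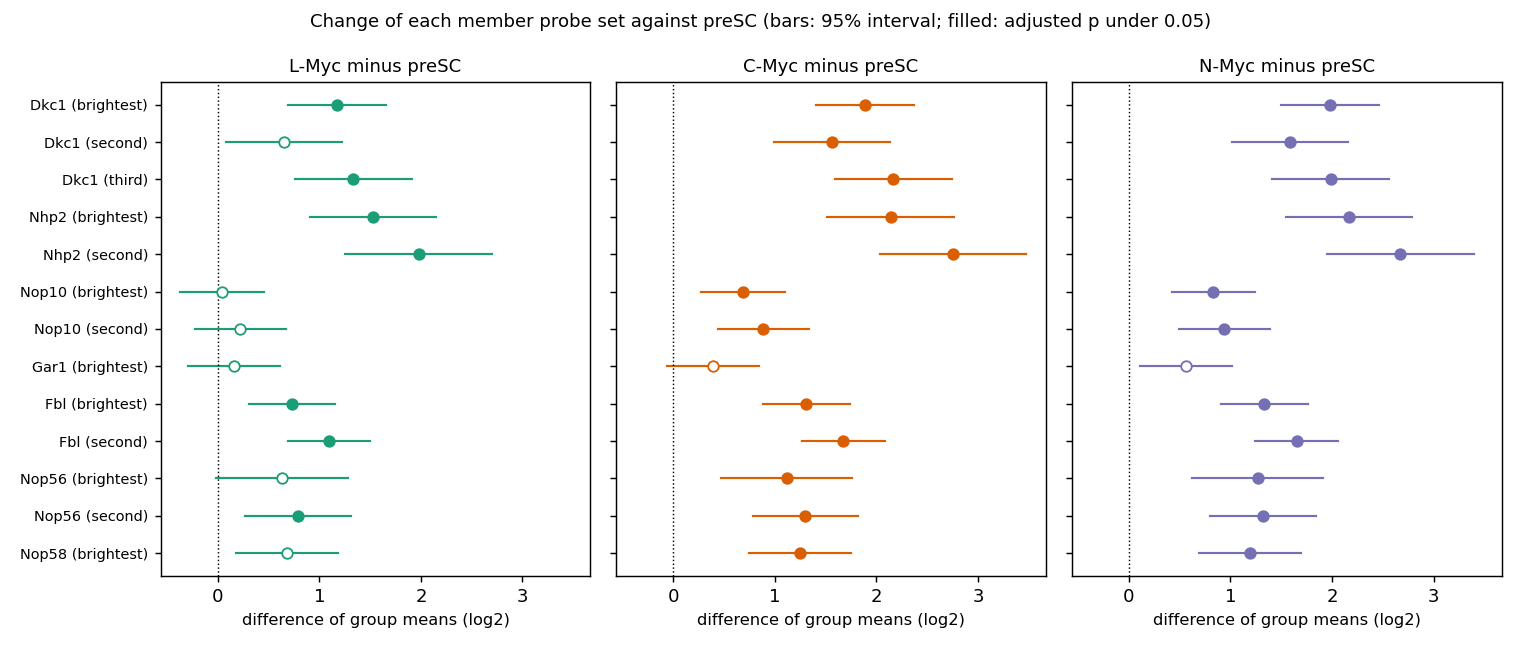
Log2 change against preSC (horizontal axis) for each of the 13 probe sets, with 95% confidence intervals of the limma fit, in 1 panel per transduced group; filled points passed an adjusted p of 0.05. Of the 13 probe sets, 7 passed in L-Myc and 12 in C-Myc and in N-Myc, and all estimates lie above 0.

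Dkc1, which encodes the pseudouridine synthase of the box H/ACA particle, was lowest in preSC and highest in the C-Myc and N-Myc arrays. Its brightest probe set (1438016_at) read 9.90, 9.96 and 9.87 in preSC. It read 11.00 and 11.18 in L-Myc, 12.15 and 11.44 in C-Myc, with 11.82 and 11.95 in N-Myc. L-Myc lay above preSC and below the remaining arrays, and only C-Myc and N-Myc overlapped. Dkc1 rose by 1.18 (SE 0.21, adjusted p = 0.0074) in L-Myc, 1.88 (SE 0.21, adjusted p = 0.0011) in C-Myc and 1.98 (SE 0.21, adjusted p = 0.00089) in N-Myc, which are folds of 2.26, 3.69 and 3.93. The second probe set (1438015_at) read 9.25 to 9.39 in preSC, 9.89 and 10.07 in L-Myc, 11.34 and 10.45 in C-Myc, with 10.82 and 11.02 in N-Myc. It passed in C-Myc (1.56) and N-Myc (1.59) and not in L-Myc (0.65, SE 0.25, adjusted p = 0.0995). The third (1441788_s_at) passed in all 3 groups, with changes of 1.33, 2.16 and 1.99. Among all tested genes, Dkc1 ranked 81 by size of increase in C-Myc, 115 in N-Myc and 263 in L-Myc.

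Nhp2, which encodes a small RNA-binding protein of the same particle, showed the widest differences of the 7 genes. Its brightest probe set (1416606_s_at) read 10.39, 10.05 and 10.31 in preSC. It read 11.42 and 12.14 in L-Myc, 12.72 and 12.05 in C-Myc, with 12.44 and 12.39 in N-Myc. All transduced arrays lay above preSC, and the L-Myc and C-Myc arrays overlapped. Nhp2 rose by 1.53 (SE 0.27, adjusted p = 0.0072) in L-Myc, 2.14 (SE 0.27, adjusted p = 0.0017) in C-Myc and 2.17 (SE 0.27, adjusted p = 0.0015) in N-Myc, with folds of 2.89, 4.40 and 4.50. The second probe set (1416605_at) read 8.57 to 8.89 in preSC, 10.32 and 11.19 in L-Myc, 11.95 and 11.12 in C-Myc, with 11.43 and 11.47 in N-Myc. Its changes of 1.98, 2.75 and 2.67 also passed in all 3 groups. Nhp2 ranked 43 of 12986 genes in C-Myc, 81 in N-Myc and 116 in L-Myc.

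Nop10, the smallest protein of the box H/ACA core, did not separate L-Myc from preSC. Its brightest probe set (1423210_a_at) read 11.53, 11.36 and 11.76 in preSC and 11.50 and 11.69 in L-Myc. It read 12.43 and 12.04 in C-Myc, with 12.39 and 12.38 in N-Myc. The L-Myc arrays lay inside the range of the preSC arrays, and the C-Myc and N-Myc arrays lay above both. The L-Myc difference was 0.04 (95% interval -0.37 to 0.45, adjusted p = 0.894), and its sign was not settled: it was -0.05 without preSC 2 or without L-Myc 2, and -0.01 with the close arrays averaged. Nop10 rose by 0.69 (SE 0.18, adjusted p = 0.0241) in C-Myc and 0.83 (SE 0.18, adjusted p = 0.0106) in N-Myc. The C-Myc call was lost without C-Myc 1 (0.49, adjusted p = 0.122), and with preSC 1 or preSC 2 left out (adjusted p = 0.0674 and 0.0772) or in a fit of these groups alone (adjusted p = 0.0669). The N-Myc call was lost without either N-Myc array (adjusted p = 0.0706 and 0.0687). The second probe set (1423211_at) read 10.32 to 10.73 in preSC, 10.62 and 10.93 in L-Myc, 11.62 and 11.27 in C-Myc, with 11.38 and 11.62 in N-Myc. Its pattern was alike: 0.22 in L-Myc (adjusted p = 0.457), and increases of 0.89 and 0.94 that passed in C-Myc and N-Myc.

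Gar1, which encodes the protein that helps load and release the RNA substrate, showed the smallest differences in C-Myc and N-Myc. Its probe set (1418305_s_at) read 9.65, 9.54 and 9.68 in preSC, 9.72 and 9.85 in L-Myc, 10.34 and 9.69 in C-Myc, with 10.25 and 10.12 in N-Myc. All 6 transduced arrays were above all preSC arrays, but C-Myc 2 (9.69) lay only just above the highest preSC array (9.68). The differences were 0.16 (95% interval -0.29 to 0.61, adjusted p = 0.604) in L-Myc, 0.39 (-0.06 to 0.84, adjusted p = 0.168) in C-Myc and 0.56 (0.11 to 1.01, adjusted p = 0.0575) in N-Myc. The C-Myc value was set by 1 array: without C-Myc 2 it was 0.71, and without C-Myc 1 it was 0.07. The N-Myc value passed with arrays centred on their medians (0.63, adjusted p = 0.0339) or quantile-normalised (0.58, adjusted p = 0.0497), in a fit of preSC and N-Myc alone (adjusted p = 0.0136), and without either C-Myc array (adjusted p = 0.0111 and 0.0110).

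Fbl, which encodes the methyltransferase fibrillarin, was the only box C/D gene to rise in L-Myc on its brightest probe set. That probe set (1416685_s_at) read 11.16, 11.03 and 11.17 in preSC. It read 11.66 and 12.05 in L-Myc, 12.66 and 12.21 in C-Myc, with 12.52 and 12.39 in N-Myc. The L-Myc arrays lay between preSC and all 4 C-Myc and N-Myc arrays. Fbl rose by 0.73 (SE 0.18, adjusted p = 0.0272) in L-Myc, 1.31 (SE 0.18, adjusted p = 0.0025) in C-Myc and 1.33 (SE 0.18, adjusted p = 0.0022) in N-Myc. The L-Myc call was lost without any 1 of preSC 1, preSC 2, preSC 3, L-Myc 2, N-Myc 1 or N-Myc 2 (adjusted p = 0.0513 to 0.160). The second probe set (1416684_at) read 10.32 to 10.55 in preSC, 11.37 and 11.65 in L-Myc, 12.31 and 11.87 in C-Myc, with 12.12 and 12.02 in N-Myc. It gave larger increases of 1.09 (adjusted p = 0.0051), 1.68 (adjusted p = 0.00093) and 1.65 (adjusted p = 0.00091).

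Nop56, a scaffold protein of the box C/D particle, varied most between the C-Myc arrays. Its brightest probe set (1455035_s_at) read 10.91, 10.92 and 10.64 in preSC. It read 11.45 and 11.47 in L-Myc, 12.46 and 11.43 in C-Myc, with 12.00 and 12.19 in N-Myc. C-Myc 2 lay just below both L-Myc arrays, while C-Myc 1 was the highest of all 9. The change was 0.63 (SE 0.28, adjusted p = 0.147) in L-Myc, which passed without either C-Myc array (adjusted p = 0.0183 and 0.0182) and in a fit of these groups alone (adjusted p = 0.0361). Nop56 rose by 1.12 (SE 0.28, adjusted p = 0.0210) in C-Myc and 1.27 (SE 0.28, adjusted p = 0.0117) in N-Myc. The C-Myc call was lost without C-Myc 1 (0.60, adjusted p = 0.0568) or any 1 preSC array (adjusted p = 0.0515 to 0.0524) and in a fit of these groups alone (adjusted p = 0.0616), and the N-Myc call without either N-Myc array (adjusted p = 0.0611 and 0.0856). On the second probe set (1426533_at), which read 10.19 to 10.53 in preSC, 11.09 and 11.31 in L-Myc, 12.06 and 11.35 in C-Myc, with 11.70 and 11.75 in N-Myc, the increases of 0.79 (adjusted p = 0.0415), 1.30 and 1.32 all passed.

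Nop58, the partner of Nop56, rose in 2 of the 3 groups. Its probe set (1450986_at) read 11.22, 10.97 and 11.04 in preSC, 11.53 and 11.99 in L-Myc, 12.61 and 12.03 in C-Myc, with 12.19 and 12.35 in N-Myc. The L-Myc arrays again lay between preSC and the 4 other transduced arrays. Nop58 rose by 1.25 (SE 0.22, adjusted p = 0.0057) in C-Myc and 1.19 (SE 0.22, adjusted p = 0.0059) in N-Myc. The N-Myc call was lost without N-Myc 2 (adjusted p = 0.0540). The L-Myc difference was 0.68 (SE 0.22, adjusted p = 0.0606), and it passed without either C-Myc array (adjusted p = 0.0288 and 0.0286).

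Counted by probe set, 7 of 13 rose in L-Myc, where 11.6% of all 29140 tested probe sets were called higher. In C-Myc and in N-Myc 12 of 13 rose, against 15.1% and 17.3%. The arrays of the groups did not overlap for 11 of 13 probe sets in L-Myc (27% of all probe sets were likewise higher without overlap), for 13 of 13 in C-Myc (27.6%) and for 13 of 13 in N-Myc (34.1%). The median change of the box H/ACA genes was 0.67 in L-Myc, 1.28 in C-Myc and 1.40 in N-Myc, and that of the box C/D genes was 0.68, 1.25 and 1.27. The particles thus had like medians. The H/ACA genes spread from Gar1 (from Nop10 in L-Myc) to Nhp2, while the 3 C/D genes lay close together. Of the 5 members with more than 1 probe set, all except Dkc1 showed a larger change on the second-brightest probe set than on the brightest in each group, which over all genes with 2 probe sets held for 59.6%, 60.7% and 60.1%. Among genes whose brightest probe set was called higher, it held for 29.9%, 33.1% and 32.4%.

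No difference between the transduced groups passed the test for any member. Between C-Myc and N-Myc the 13 differences lay between -0.17 and 0.17, with 0 of 13 passing at an unadjusted p of 0.05. The arrays of these groups overlapped for all 13. The intervals were wide: for Nop56, the difference of -0.15 had a 95% interval of -0.86 to 0.56, so these data do not show that the levels were equal. Over all probe sets, 0.00343% were called lower in C-Myc than in N-Myc.

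L-Myc lay below both other groups for every probe set, without passing the adjusted threshold. Against N-Myc the 13 differences ranged from -0.94 to -0.40, and the L-Myc arrays were below both N-Myc arrays for 13 of 13, where 28.8% of all probe sets were. By brightest probe set, 3 of 7 genes (Dkc1, Nop10 and Fbl) had an unadjusted p under 0.05 in that direction, against 8.69% of all genes, and the adjusted p of the 13 probe sets was 0.151 to 0.346. Against C-Myc the differences ranged from -0.91 to -0.23, the arrays did not overlap for 9 of 13 (13.4% of all probe sets), and 4 of 7 genes (Dkc1, Nop10, Fbl and Nop58) had an unadjusted p under 0.05, against 2.24% of all genes, with adjusted p of 0.858 to 0.889. In both comparisons 0 of the 29140 probe sets passed in limma, those of the introduced genes included. The second-brightest Mycl probe set did not pass with a limma difference of 4.67 from C-Myc (adjusted p = 0.858). Nor did it pass with 5.16 from N-Myc (adjusted p = 0.151). The absence of calls therefore does not show that member levels were equal. The differences of L-Myc from N-Myc, -0.80 for Dkc1 and -0.79 for Nop10, do not use the C-Myc arrays. Leaving out either C-Myc array therefore could not change their size, only the spread shared by the fit. Without C-Myc 2 the differences from C-Myc were -1.06 for Dkc1 and -1.002 for Nop56. They then rest on C-Myc 1 alone, the highest of the 9 arrays for both genes. Without C-Myc 1 the Nop56 difference was 0.03. The labels also name another molecule for L-Myc than for C-Myc and N-Myc, which is in doubt as said, and its part was not tested. The 18S controls read 8.22 and 9.35 in L-Myc and 8.40 to 9.29 in C-Myc and N-Myc, and their part was not tested either.

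**Figure D3:**
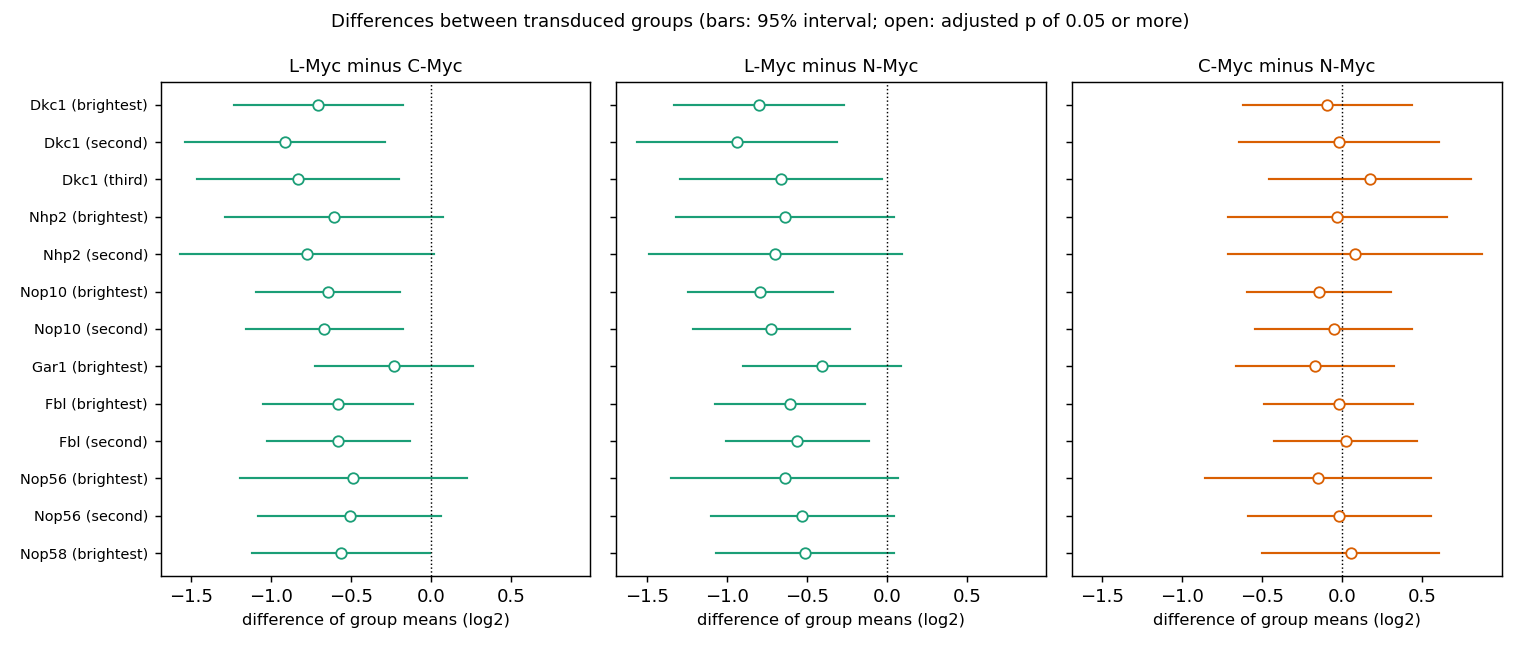
Log2 difference between transduced groups (horizontal axis) for each of the 13 probe sets, with 95% confidence intervals of the limma fit, in 1 panel per pair of groups. The C-Myc minus N-Myc differences lie between -0.17 and 0.17, and all differences of L-Myc from C-Myc and N-Myc lie below 0.

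The members largely moved together between groups and within the L-Myc and C-Myc pairs, but less so within N-Myc and preSC. The mean of the 7 genes, each centred on its own mean over the arrays, was -0.68, -0.81 and -0.71 in preSC. It was -0.17 and 0.12 in L-Myc, 0.84 and 0.20 in C-Myc, with 0.59 and 0.61 in N-Myc. C-Myc 1 was the highest of the 9 arrays and C-Myc 2 lay nearer to L-Myc 2 than to its own partner. C-Myc 1 exceeded C-Myc 2 for 13 of 13 probe sets, by 0.35 to 1.03 with a median of 0.68, where 51.4% of all probe sets were higher in C-Myc 1 and their median difference was 0.02 (SD 0.70). L-Myc 2 exceeded L-Myc 1 for 13 of 13, by a median of 0.26, where 48.6% of all probe sets did. The N-Myc arrays were close, with N-Myc 2 higher for 8 of 13 (52.9% of all). In preSC the directions were mixed. There preSC 1 exceeded preSC 2 for 10 of 13 (53.3% of all), and preSC 1 minus preSC 3 ran from -0.24 to 0.31. Both L-Myc arrays fell between all preSC and all C-Myc and N-Myc arrays for 7 of 13 probe sets (the 3 of Dkc1, the 2 of Fbl, the second of Nop56, and Nop58), where 2.83% of all probe sets did. The introduced genes are given beside this without a test: Myc was 11.22 in C-Myc 1 and 10.68 in C-Myc 2, and Mycl was 11.79 in L-Myc 1 and 12.74 in L-Myc 2. Mycn was 9.05 in N-Myc 1 and 8.46 in N-Myc 2, the reverse of the small member difference. With 2 arrays a group, no relation between them could be tested.

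**Figure D4:**
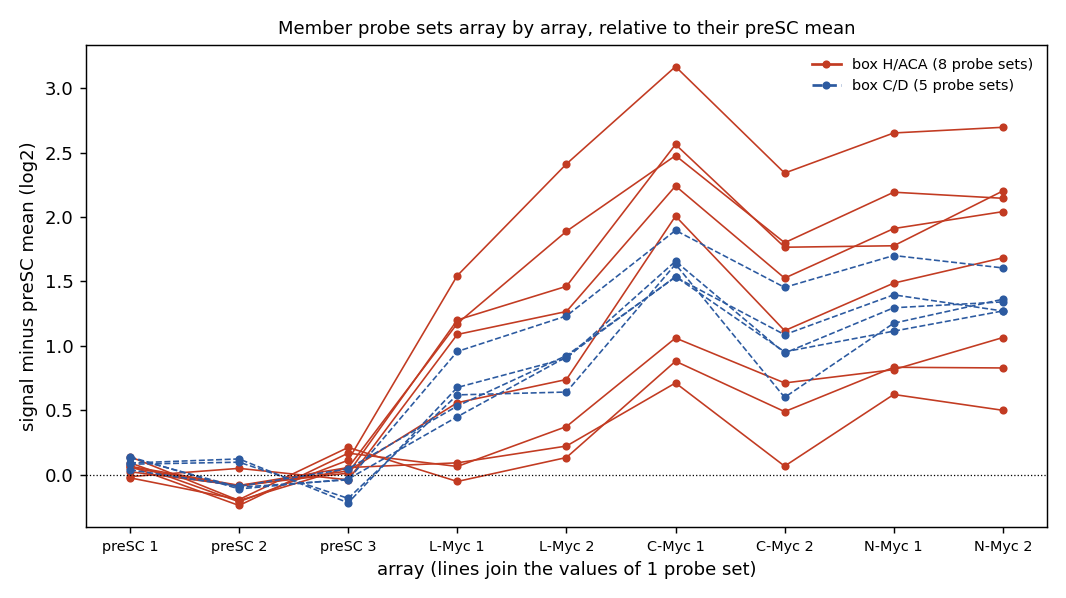
Log2 signal of each of the 13 probe sets minus its own preSC mean (vertical axis) on each array (horizontal axis), with 1 line per probe set, solid red for box H/ACA (8 probe sets) and dashed blue for box C/D (5 probe sets). Lines only join the values of 1 probe set, and all 13 are higher in C-Myc 1 than in C-Myc 2 and in L-Myc 2 than in L-Myc 1.

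Pairwise Pearson correlations between the 7 genes over the 9 arrays lay between 0.82 (Nhp2 with Nop10) and 0.99 (Nhp2 with Fbl), with a median of 0.92 over 21 pairs (Spearman's rho 0.85 and 0.97 for the pairs named). Over the 6 transduced arrays the median was 0.90. The arrays share the group differences and their normalisation, and 848 of 12979 other genes had a correlation above 0.9 with the mean of the members. The genes most alike over 9 arrays were Gnl3, which encodes nucleostemin, a nucleolar GTP-binding protein (r = 0.997), Tomm22, a subunit of the mitochondrial import receptor (0.997), Utp4, of the small-subunit processome (0.996), Gtf3c6, of RNA polymerase III transcription factor C (0.996), and Gadd45gip1, a mitochondrial ribosome protein (0.995). Over the 6 transduced arrays they were Mak16, a ribosome assembly factor, Utp4, Dctd, a deoxycytidylate deaminase, Pdcd2 and 2310011J03Rik, with r of 0.996 to 0.998.

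Other genes of the pathway were described from 7 lists by their brightest probe sets. Their counts rest on the same few arrays: leaving out any 1 array moved between 4 and 12 of the 21 list counts by over 1.5 times, and with the close arrays averaged each list had 0 to 4 genes called. Over all tested genes, 6.82% were called higher and 10.1% lower in L-Myc, 10.7% higher and 15.1% lower in C-Myc, with 13.3% higher and 17.5% lower in N-Myc. Genes named below because they fell, beyond Naf1, Tert and the S phase genes, were chosen after their values were seen. Of 11 tested assembly factors, 1 rose and 1 fell in L-Myc. In C-Myc 4 rose and 1 fell, and in N-Myc 4 rose and 0 fell, with medians of 0.29, 0.46 and 0.42. The L-Myc count is near the share of all genes. Ruvbl2, an ATPase of the R2TP chaperone complex, rose in all 3 groups (1.16, 1.56 and 1.67). Its partner Ruvbl1 rose in C-Myc (1.07) and N-Myc (1.52) and was 0.29 in L-Myc. Znhit6, a box C/D assembly factor, rose in the same groups (0.79 and 0.91). Naf1, which holds the place of Gar1 in immature box H/ACA particles, went the other way. It read 11.62, 11.72 and 11.82 in preSC, 10.08 and 10.68 in L-Myc, 10.99 and 10.84 in C-Myc, with 11.44 and 11.32 in N-Myc. All transduced arrays were below preSC, and Naf1 fell by 1.34 (SE 0.19, adjusted p = 0.0031) in L-Myc and by 0.81 in C-Myc, while its N-Myc difference of -0.34 did not pass. Naf1 was thus lowest in L-Myc, where Gar1 differed from preSC by 0.16.

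Of 4 tested proteins of the U3 snoRNP, which guides early cleavage of the ribosomal RNA precursor, 1 rose in L-Myc, and 3 rose in C-Myc and in N-Myc, with none lower and medians of 0.46, 0.96 and 0.94. Rrp9, the U3-specific core protein, rose in all 3 groups (0.74, 0.91 and 0.75). Imp4 rose in C-Myc (1.02) and N-Myc (1.39) and was 0.38 in L-Myc, and of its other probe sets one passed in both and one in N-Myc only. Mphosph10 was 0.54 in L-Myc and rose by 1.14 in C-Myc and in N-Myc on its brightest probe set, but its other probe set read 0.18, 0.18 and -0.12. Among 6 nucleolar and Cajal body partners, 2 rose and 1 fell in L-Myc and in C-Myc, and 2 rose and 0 fell in N-Myc (medians 0.38, 0.50 and 0.34). Nolc1, the nucleolar phosphoprotein that binds both kinds of snoRNP, rose by 0.93, 0.98 and 0.82. Smn1, which assembles spliceosomal particles and binds Gar1 and fibrillarin, rose by 2.60, 2.88 and 3.24. Tert, the telomerase reverse transcriptase, was called lower in L-Myc and in C-Myc on its brightest probe set, but both of its probe sets read near the floor (4.71 to 6.25 over the arrays) and differed in opposite directions, so no change is given for it.

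Noncoding genes whose introns hold snoRNAs were called in both directions. Of 16 tested, 5 rose and 0 fell in L-Myc, 9 rose and 1 fell in C-Myc, and 7 rose and 2 fell in N-Myc, with medians of 0.35, 0.83 and 0.23. Dancr rose by 1.73, 1.10 and 0.86, Snhg16 by 0.95, 1.65 and 1.15, and Snhg6 by 1.22, 1.64 and 1.05. Snhg17 rose by 1.40 in C-Myc and by 1.07 in N-Myc (0.30 in L-Myc). Snhg10 fell by 0.76 in C-Myc and by 0.95 in N-Myc, and Snhg14 fell by 0.94 in N-Myc. The snoRNAs themselves were not analysed here.

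Enzymes that modify RNA without a snoRNP guide, and partners of such enzymes, were counted in the same way. Of 11 tested stand-alone pseudouridine synthases, 4 rose and 0 fell in L-Myc, 7 rose and 0 fell in C-Myc, and 5 rose and 1 fell in N-Myc, with medians of 0.60, 0.88 and 0.68. The one that fell was Rpusd4 (by 0.72). Pus1 rose by 0.62, 0.89 and 0.99 in the 3 groups. Pus7 (1.38 and 1.29) and Pus7l (1.65 and 1.67) rose in C-Myc and N-Myc, with 0.63 and 0.49 in L-Myc. Pus3 rose in L-Myc (0.95) and C-Myc (1.11) and was 0.41 in N-Myc, while its other probe sets stood at 0.31, 0.30 and -0.45, and at 0.05, 0.24 and -0.46. Of 14 other genes listed for ribosomal RNA modification, enzymes or their partners, 1 rose in L-Myc, 6 in C-Myc and 7 in N-Myc. In N-Myc 1 was lower, and none was in the others (medians 0.25, 0.50 and 0.45). The L-Myc count is near the share of all genes, and the one that fell was Trmt112 (by 0.79). Dimt1, an adenosine dimethyltransferase of small-subunit RNA, was the one that rose in L-Myc (0.60, then 0.87 and 0.77), but its other probe set (0.19, 0.37 and 0.22) did not pass in any group. Ftsj3 (2.11 and 1.86), Thumpd1 (1.22 and 1.44) and Nop2 (1.09 and 1.33) rose in C-Myc and N-Myc, with 1.13, 0.78 and 0.54 in L-Myc.

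None of the 9 tested genes of S phase and mitosis was called higher on its brightest probe set. None of them passed in L-Myc (2 had an unadjusted p under 0.05), 2 fell in C-Myc and 1 fell in N-Myc, with medians of -0.04, -0.22 and -0.35. Mcm5 and Mcm2 fell in C-Myc (by 0.75 and 0.57) on their brightest probe sets. Of the others of Mcm5, one differed the same way (-0.69) and one the opposite way (0.88 in C-Myc, with increases that passed in L-Myc, 1.02, and N-Myc, 1.34). The other of Mcm2 stood at 0.10 in C-Myc and rose by 0.60 in N-Myc, so these genes have no settled direction. Top2a fell by 0.62 in N-Myc.

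**Figure D5:**
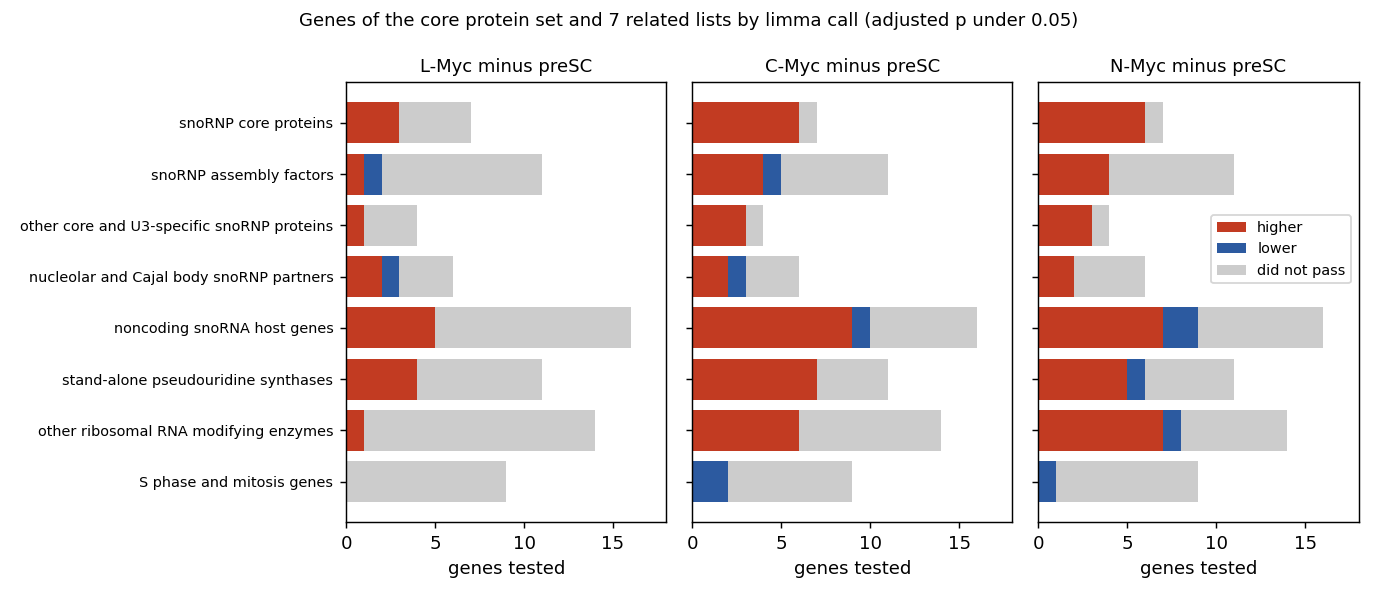
Number of genes (horizontal axis) called higher, called lower or not passing an adjusted p of 0.05 against preSC, for the core genes and each related list (vertical axis), in 1 panel per transduced group. Core genes called higher number 3, 6 and 6 of 7, and the S phase and mitosis list has none called higher in any panel.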

How the data were processed

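RNA of 9 cultured samples was measured on Affymetrix mouse expression arrays, and the sample titles gave each array's group and number. The table holds log2 values deposited by the authors, 1 per probe set and array, made with RMA in the affy package under R 3.0.1 per the submitters' processing notes. No source used here gives the affy version. RMA forces the arrays to a common distribution, so a change of most transcripts in one direction would not be seen. Array medians were 6.02 to 6.07, and no further scaling was applied. Levels of different probe sets were not compared, since their scales differ.

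The 45101 probe sets were named through the platform annotation: 34945 had 1 symbol, 932 had several and were left unnamed, and 64 were controls. RefSeq (GRCm38.p6) renamed 0. A probe set was tested if above the 40th percentile (5.28 to 5.34, the floor) in at least 2 arrays. Group means were fitted to all 9 arrays with limma 3.58.1 in R 4.3.3 (lmFit and eBayes, 5 residual degrees of freedom) over 29140 probe sets, two-sided, with Benjamini-Hochberg adjustment and a threshold of 0.05. A gene was called by its brightest probe set. The number of arrays limits the precision. The design text calls the replicates biological, and p-values measure only the spread between these arrays.

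The members and lists were chosen with earlier results of these data known, and the motifs after the sequences were seen. Named genes are all member probe sets, Myc, Mycl and Mycn, up to 4 genes of largest change past the threshold from each list, the 5 genes most correlated with the members' mean over 9 and over 6 arrays, and control probe sets. Alternatives covered scaling, the filter, the arrays in the fit, eBayes settings, the choice of probe set, the replicate block and each array left out. List counts under the alternatives and the averaging of close arrays were added after seeing the data.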

Additional observations from a re-analysis of the deposited data

How the results depend on the processing

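All 3 changes of Dkc1, Nhp2, Fbl, Nop56 and Nop58 against preSC kept their sign under every alternative run, as did those of Gar1. The L-Myc change of Nop10 turned to -0.00278 under quantile normalization and -0.0113 with close arrays averaged, and ranged from -0.0534 to 0.149 with 1 array left out. C-Myc minus N-Myc differences turned with the mean of probe sets (Dkc1 0.0198, Nhp2 0.0248) and on the second-brightest probe set (Nhp2 0.0798, Fbl 0.0220). With 1 array left out they ranged from -0.45 to 0.26 (Dkc1), -0.37 to 0.31 (Nhp2), -0.341 to 0.0495 (Nop10), -0.49 to 0.15 (Gar1), -0.25 to 0.20 (Fbl), -0.67 to 0.36 (Nop56) and -0.24 to 0.34 (Nop58). L-Myc minus C-Myc then ranged from -0.555 to 0.0907 for Gar1 and from -1.002 to 0.0304 for Nop56. The causes were not tested.

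With 1 array left out, core genes called ranged from 2 to 5 in L-Myc, 3 to 7 in N-Myc, 0 to 2 for L-Myc minus C-Myc and 0 to 2 for L-Myc minus N-Myc, and from 4 to 7 in C-Myc. Probe sets called ranged from 3383 to 8032 (L-Myc), 5482 to 9188 (C-Myc), 3777 to 11596 (N-Myc), 0 to 854 (C-Myc minus N-Myc), 0 to 1188 (L-Myc minus C-Myc) and 0 to 2487 (L-Myc minus N-Myc). List counts in L-Myc ranged from 0 to 2 (U3), 2 to 6 (host genes), 0 to 5 (pseudouridine synthases), 0 to 4 (other modifying enzymes) and 0 to 1 (S phase). In C-Myc they ranged from 1 to 6 (assembly), 3 to 7 (pseudouridine synthases), 3 to 8 (other modifying enzymes) and 0 to 3 (S phase). In N-Myc they ranged from 1 to 5 (assembly), 1 to 3 (U3), 1 to 2 (Cajal body), 1 to 8 (host genes), 1 to 7 (pseudouridine synthases), 1 to 9 (other modifying enzymes) and 0 to 2 (S phase).

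With close arrays averaged, which leaves fewer samples, core genes called were 0 in L-Myc, 3 in C-Myc and 0 in N-Myc, and probe sets called 1827, 2822, 355 and, for C-Myc minus N-Myc, 0. List counts in L-Myc became 0 (U3), 1 (Cajal body), 1 (host genes), 0 (pseudouridine synthases) and 0 (other modifying enzymes). In C-Myc they became 1 (assembly), 1 (U3), 4 (host genes), 1 (pseudouridine synthases), 0 (other modifying enzymes) and 0 (S phase), and in N-Myc 1 (Cajal body) and 0 for the other 6 lists.

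With 1 probe set per gene, so fewer features, 1748, 3049, 3741 and 0 were called in L-Myc, C-Myc, N-Myc and C-Myc minus N-Myc, and with the mean of probe sets 1736, 2858, 3529 and 0. Both settings called 2 pseudouridine synthases and 0 other modifying enzymes in L-Myc, and 0 S phase genes in C-Myc. The other modifying enzymes called in L-Myc were 2 under centring, quantile normalization, the 60th percentile filter, the trend and robust fit and the fit of 2 groups only. S phase genes called were 0 (centring), 1 (no filter) and 0 (2 groups only) in C-Myc, and 3 (quantile), 2 (60th percentile), 3 (trend and robust) and 3 (2 groups only) in N-Myc. The fit of 2 groups only also called 2 pseudouridine synthases in L-Myc, 2 assembly factors and 3 other modifying enzymes in C-Myc, and 0 probe sets for C-Myc minus N-Myc and 669 for L-Myc minus N-Myc.

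Whether replicate numbers pair the arrays cannot be told from the values. Correlations of the replicate differences between groups ran from -0.01 to 0.44 (L-Myc with C-Myc), not all over 0.1. With the replicate block, core genes called were 2 in L-Myc, 5 in C-Myc and 6 in N-Myc. The calls of Fbl in L-Myc (adjusted p = 0.0663) and Nop56 in C-Myc (adjusted p = 0.0559) were lost. List counts under the block became 0 (U3), 3 (host genes) and 1 (S phase) in L-Myc and 1 (assembly) in C-Myc, with 0 probe sets called for C-Myc minus N-Myc.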
